A study of Mus musculus with 8 samples.

Results

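The 4 transcription factor genes most used to turn somatic cells into pluripotent cells, Pou5f1 (Oct4), Sox2, Klf4 and Myc, were followed in a mouse pre-iPSC clone with and without vitamin C. They were found as the probe sets that the platform annotation gives to these symbols. That gave 4 of the 28853 probe sets on the array, 1 for each gene, and 4 of 19938 genes. The cells, MaF pre-iPSC9P2 in the labels, are pre-induced pluripotent stem cells, that is, cells part of the way to an induced pluripotent stem cell. The series title names a single clone, so all cells derive from 1 clone. They were plated on feeder cells in medium for mouse embryonic stem cells. The treated group received vitamin C at 50 µg/ml from day 2 on and the untreated group received none, and both were otherwise handled alike. Cells were trypsinized, feeder cells were removed, and total RNA was taken on days 3, 4, 5 and 6. That made 8 arrays, 1 for each treatment and day, so no single day has a replicate and tests rest on the 4 days of a treatment. The labels do not say whether each day was a culture of its own. The p-values therefore speak only of the scatter among these arrays, which may be technical. The labels do not say which genes had been introduced into the cells, or how.

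Pou5f1 encodes a POU-domain factor and Sox2 an HMG-box factor, which bind neighbouring sites in DNA and together drive their own genes and many others of embryonic stem cells. Klf4 encodes a zinc finger factor of embryonic stem cells and of epithelia. Myc encodes a factor that pairs with Max at E-boxes and drives genes of growth and ribosome production. In partly reprogrammed cells the introduced copies are often still expressed while the cells' own Sox2 or Pou5f1 can still be silent, and vitamin C is known to help such cells to complete reprogramming.

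Sox2 was the member whose RNA moved with vitamin C, and its proximal promoter is shown beside those of Klf4 and Pou5f1, for which no change passed a test. The promoters are RefSeq windows of assembly GRCm38.p6, cut to the 250 bases before the start site and read 5′ to 3′ on the gene's strand. The promoter table matched 3 of the 4 genes, not Myc, and for Pou5f1 the first of its start sites is given. Capitals mark letters that match binding sites of the 4 factor families, searched on both strands: the GC box GGGCGG and the CACCC box, here CCACCC, for KLF and related zinc finger factors, the E-box CACGTG for Myc with Max, and ATGCAAA, which is 7 letters of the octamer, for POU factors. For SOX factors the motif ACAAAG and its variant ACAATG were searched. Neighbouring matches can overlap, as for some GC and CACCC boxes.
Sox2, chr3:34649745-34649994, plus strand: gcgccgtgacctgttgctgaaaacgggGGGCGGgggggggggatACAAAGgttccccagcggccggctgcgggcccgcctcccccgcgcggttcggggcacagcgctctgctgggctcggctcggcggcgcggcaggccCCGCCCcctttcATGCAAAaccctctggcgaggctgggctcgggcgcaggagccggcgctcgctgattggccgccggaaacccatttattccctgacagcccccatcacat
Klf4, chr4:55532476-55532725, minus strand: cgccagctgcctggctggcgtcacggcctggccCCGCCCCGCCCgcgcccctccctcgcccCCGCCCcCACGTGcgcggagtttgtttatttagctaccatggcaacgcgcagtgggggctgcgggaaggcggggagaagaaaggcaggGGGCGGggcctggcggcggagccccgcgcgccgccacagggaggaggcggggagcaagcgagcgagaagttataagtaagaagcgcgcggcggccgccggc
Pou5f1, chr17:35505782-35506031, plus strand: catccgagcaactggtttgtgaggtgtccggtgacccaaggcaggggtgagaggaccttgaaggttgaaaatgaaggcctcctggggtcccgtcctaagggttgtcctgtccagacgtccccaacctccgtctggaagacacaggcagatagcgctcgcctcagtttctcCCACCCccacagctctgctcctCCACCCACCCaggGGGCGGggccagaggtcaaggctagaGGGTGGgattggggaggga

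The Sox2 window held an ATGCAAA match at -99 from the start site, an ACAAAG match at -206 and GC boxes at -223 and -111, positions being those of the leftmost base. The full octamer ATGCAAAT was not among its letters. Of 32851 promoter windows of this length, 4.12% held ATGCAAA, 1.60% the full octamer, 16.5% ACAAAG and 10.7% ACAATG. The Klf4 window held an E-box at -182, which 6.02% of windows held, and 4 GC boxes, which 32.7% held at least once. The Pou5f1 window held a GC box at -45 and 4 CACCC boxes between -80 and -19, and 28.1% of windows held a CACCC box. The Sox2 and Klf4 windows were rich in CpG, with 27 and 32 CpG dinucleotides and a GC content of 72% and 74%. The Pou5f1 window had 8 CpG and 62% GC, against a median of 6 CpG and 52.4% over all windows. These matches are letters only, and the arrays carry no measurement of binding or methylation at them.

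Sox2 rose steeply in cells with vitamin C and stayed low without it, while no change of Pou5f1, Klf4 or Myc passed a test. Over all 8 arrays Pou5f1 moved by 0.185, Myc by 0.29 and Klf4 by 0.67 on the log2 scale. Without vitamin C, the Sox2 level (log2 RMA value) at days 3, 4, 5 and 6 was 5.00, 4.93, 5.22 and 5.18. The treated arrays read 4.91, 6.30, 7.19 and 7.74 at the same days. On day 3 the treated array lay below all 4 untreated ones, and on days 4, 5 and 6 it lay above all of them. The vitamin C array was 0.938-fold the untreated one at day 3, then 2.58-fold, 3.91-fold and, at day 6, 5.87-fold. From day 3 to day 6 Sox2 became 7.12-fold higher with vitamin C and 1.14-fold higher without it. The steps with vitamin C were 1.39 from day 3 to day 4, 0.89 to day 5 and 0.55 to day 6 on the log2 scale, each above the moderated residual SD of 0.19 for this gene. More Sox2 RNA per cell and more cells with Sox2 RNA cannot be told apart in these bulk samples.

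**Figure D1:**
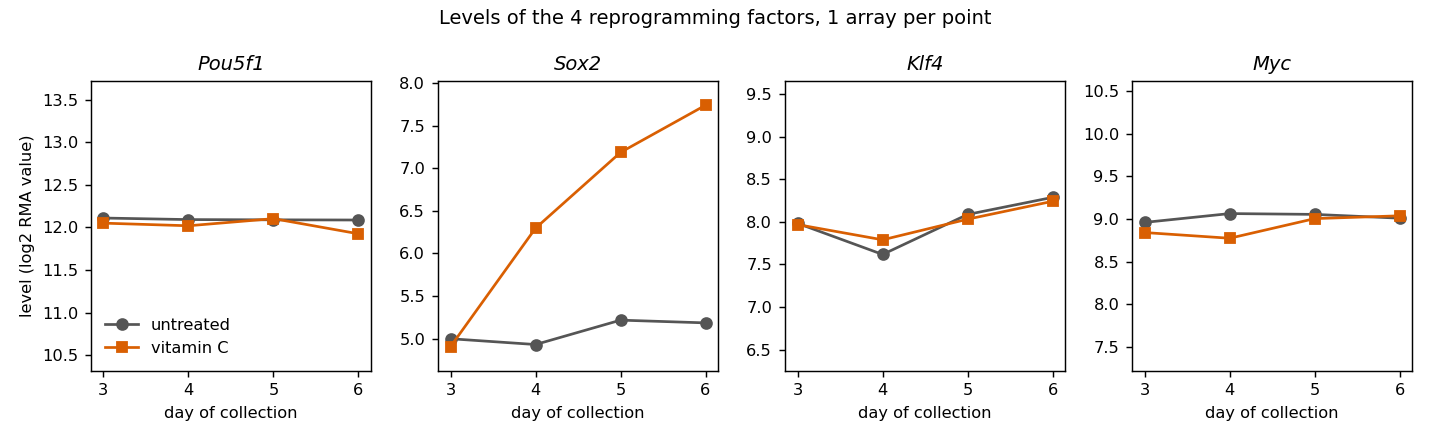
Levels of Pou5f1, Sox2, Klf4 and Myc (log2 RMA value, every panel spanning the same number of log2 units) by day of collection, with 1 array per point, grey circles for untreated and orange squares for vitamin C. Sox2 climbed from 4.91 to 7.74 with vitamin C and lay between 4.93 and 5.22 without it, and the other 3 genes moved by at most 0.67 over all 8 arrays.

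Slopes came from the 4 arrays of a treatment, and their moderated SEs from a spread estimated over all 8 arrays. The slope of Sox2 on day was 0.94 ± 0.08 per day with vitamin C (log2, limma adjusted p = 0.000336, 95% interval 0.75 to 1.12). This comparison called 8.64% of all 19938 genes. Sox2 had the 21st smallest p of them. Fitted on the 4 treated arrays alone, the Sox2 slope passed with a larger p (limma adjusted p = 0.00297). Its slope passed without each of the 4 treated arrays in turn, with slopes from 0.72 without day 3 to 1.14 without day 6 and adjusted p-values from 0.000667 to 0.00705. Without vitamin C the slope was 0.08 ± 0.08 per day (adjusted p = 0.666, interval -0.10 to 0.27), in a comparison that called 1.75% of genes (156 rising and 193 falling, or 130 and 255 with arrays centred on their medians).

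The difference between these slopes, 0.85 ± 0.12 per day, passed the test (limma adjusted p = 0.0391, interval 0.59 to 1.11), where 0.0652% of genes did. Sox2 was the 11th of the 13 genes called. That call rested on single arrays: it was kept without the treated array of day 4 (adjusted p = 0.0387) and missed without any of the other 7 in turn, with adjusted p-values of 0.363, 0.0834, 0.0693 and 0.287 for leaving out untreated days 3, 4, 5 and 6. They were 0.0785, 0.0718 and 0.0569 for leaving out treated days 3, 5 and 6. The difference in slope stayed between 0.64 and 1.06, and unadjusted p-values ran from 1.26e-05 to 0.000768. Tested among all 28853 probe sets, the adjusted p was 0.0724.

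Averaged over the 4 days, the vitamin C difference of Sox2 was 1.45 ± 0.34 (limma adjusted p = 0.104, interval 0.68 to 2.22) and did not pass. This comparison called 0.752% of genes. The SD of the 4 daily differences was 1.14, since the difference was -0.09 on day 3 and 2.55 on day 6. Without day 3 the difference was 1.96 and passed (adjusted p = 0.00522). It was 0.92 (adjusted p = 0.523) when day was replaced by the mean of 28 markers of feeder cells or fibroblasts. The mean log2 level of these markers fell from 7.32 on day 3 to 6.41 on day 6 without and from 6.82 to 6.28 with vitamin C, and their part in the result was not tested.

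Pou5f1 was level in all arrays, at values high on a log2 scale whose largest value was 13.78. Whether changes are read in full at so high a level was not tested. Without vitamin C it read 12.11, 12.09, 12.09 and 12.09 at days 3 to 6. With vitamin C it was 12.05, 12.02, 12.10 and 11.93 on the same days. The groups overlapped, the treated array of day 6 was the lowest, and the whole range was 0.185. The vitamin C difference was -0.07 ± 0.10 (limma adjusted p = 0.850, interval -0.30 to 0.16), and the slopes on day were -0.01 ± 0.06 without and -0.03 ± 0.06 with vitamin C (adjusted p = 0.966 and 0.798). The interval leaves room for a fall of up to 0.30 or a rise of up to 0.16. Pou5f1-rs4, a transcribed pseudogene of Pou5f1 with a probe set of its own, lay between 2.40 and 2.76 and did not pass either (0.02 ± 0.11, adjusted p = 0.967).

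Klf4 values spread more over days, with ranges of 0.67 without and 0.45 with vitamin C, than between same-day arrays, which differed by at most 0.17. Klf4 was given no test of day against treatment, and a slope on day does not test a low on day 4. Its level without vitamin C at days 3 to 6 was 7.98, 7.62, 8.09 and 8.29. With vitamin C it was 7.97, 7.79, 8.03 and 8.24. Day 4 was the lowest and day 6 the highest in both treatments, and the groups overlapped. The vitamin C difference was 0.01 ± 0.10 (limma adjusted p = 0.977, interval -0.22 to 0.25). The slopes on day, 0.14 ± 0.08 without (adjusted p = 0.431) and 0.11 ± 0.08 with vitamin C (adjusted p = 0.467), did not pass.

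Myc was slightly lower with vitamin C on the first days and level later. Without vitamin C it read 8.96, 9.06, 9.06 and 9.01 at days 3 to 6. With vitamin C it was 8.84, 8.78, 9.01 and 9.04. The treated arrays of days 3 and 4 lay below all others, by up to 0.29 against the untreated array of the same day. The vitamin C difference of -0.11 ± 0.11 (limma adjusted p = 0.752, interval -0.35 to 0.13) did not pass, nor did the slopes of 0.01 ± 0.06 without and 0.08 ± 0.06 with vitamin C (adjusted p = 0.935 and 0.435).

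**Figure D2:**
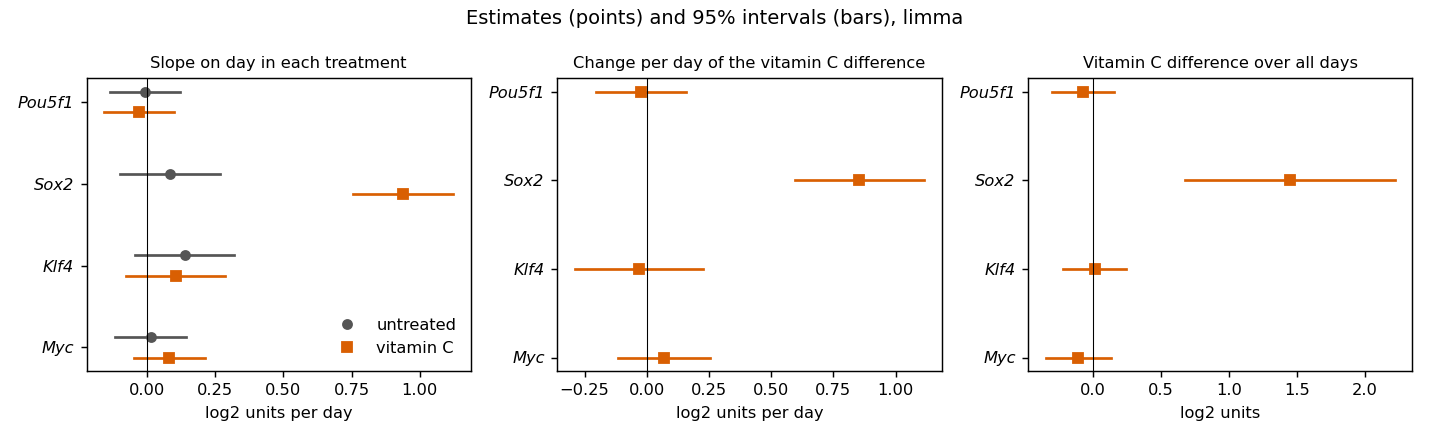
Estimates (points) and 95% intervals (bars) from limma for each member, as slopes on day in log2 units per day (left, grey for untreated and orange for vitamin C), as the difference between the slopes (middle), and as the vitamin C difference over all days in log2 units (right). Among the 4 genes the intervals of Sox2 lie apart from 0, except for its untreated slope, while those of Pou5f1, Klf4 and Myc include 0 throughout.

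Ordered by level, the Sox2 arrays with vitamin C of days 6, 5 and 4 came first, with gaps of 0.55, 0.89 and 1.08 to the next array. The other 5 arrays lay within 4.91 to 5.22, and 1 gap among them, between untreated days 6 and 3, was barely above the residual SD of 0.19. For Pou5f1, Klf4 and Myc no 2 neighbours in the order differed by more than the residual SD of the gene (0.13, 0.18 and 0.13). Over the 8 arrays the correlation between members was -0.65 for Pou5f1 with Sox2, 0.32 for Sox2 with Klf4, 0.28 for Klf4 with Myc, -0.26 for Pou5f1 with Klf4, 0.17 for Pou5f1 with Myc and 0.06 for Sox2 with Myc. These are descriptions over 8 arrays that share days and clone, and the range of Pou5f1 was 0.185 against 2.83 for Sox2. With 1 probe set a gene, RNA from the cells' own genes and from introduced copies cannot be told apart. The sources used here do not say which parts of the transcripts the probes read.

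The genes whose levels followed Sox2 most closely, by Pearson correlation over the 8 arrays among 12671 genes with a range of at least 0.5, were also low without vitamin C and on treated day 3. They were Slc23a1, the gene of a vitamin C transporter (r = 0.990), Sez6, a neural membrane protein gene (r = 0.990), Rbm47, an RNA-binding protein gene (r = 0.986), Amt of the glycine cleavage system (r = 0.985), the small GTPase gene Rab15 (r = 0.984) and the cell polarity gene Llgl2 (r = 0.983). Slc23a1 lay between 3.69 and 4.04 without vitamin C and went from 3.66 on day 3 to 4.87, 6.09 and 6.80 with it. Amt lay between 4.24 and 4.79 without vitamin C and went from 4.68 to 6.81 with it. Sez6 had the smallest course, from 4.50 to 5.37 with vitamin C. In all 238 genes had r of at least 0.9 to Sox2 and 168 had r of -0.9 or less. These genes were picked for their likeness over the same arrays, so no test is given for them.

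**Figure D3:**
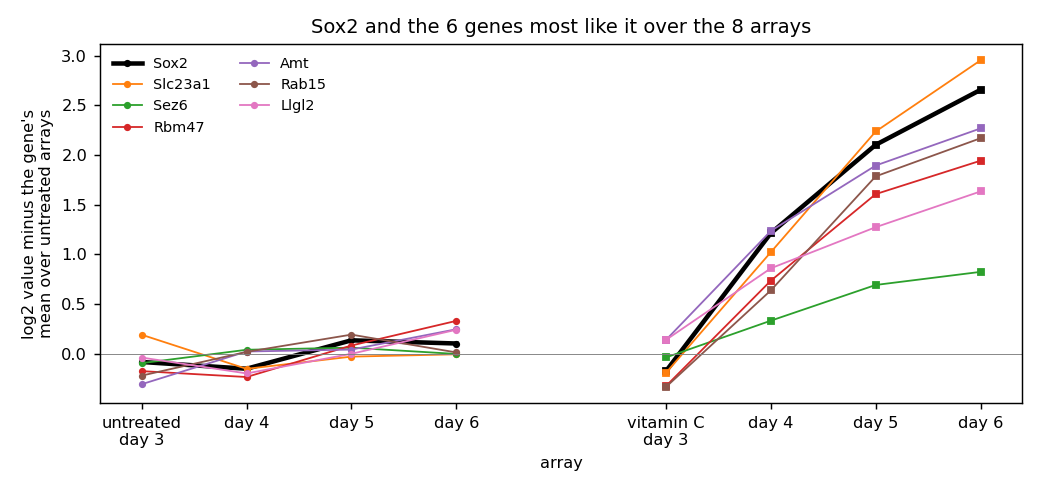
Sox2 (thick black line) and the 6 genes most like it by correlation over the 8 arrays, as log2 value minus the mean of the gene over untreated arrays, with untreated arrays on the left (circles) and arrays with vitamin C on the right (squares). All 7 lines stay near 0 without vitamin C and climb from day 4 with it, with Slc23a1 the highest and Sez6 the lowest on day 6.

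The other members had far fewer close neighbours, 7 genes with r of at least 0.9 for Pou5f1, 30 for Klf4 and 48 for Myc. For Klf4 the closest were Sox9, a SOX factor gene of epithelial and cartilage progenitors (r = 0.968), Mafk, which encodes a small bZIP factor (r = 0.959), the neurotrophin receptor gene Ntrk2 (r = 0.955), Kcne1 (r = 0.954), Slc6a12 (r = 0.948) and Necab3 (r = 0.943). Sox9 shared the low day 4, with 4.20 without and 4.33 with vitamin C, and the high day 6, with 5.14 and 5.12. For Myc the closest were the small GTPase gene Rab18 (r = 0.958), Dnajc8 (r = 0.953), Ttc7b (r = 0.951), Rasl10b (r = 0.951), Bmt2 (r = 0.950) and the kinase gene Tlk2 (r = 0.948), all lower on treated days 3 and 4 than in the other arrays. For Pou5f1 they were Afmid (r = 0.973), Ephx1 (r = 0.925), Tshz2 (r = 0.916), the autophagy gene Becn1 (r = 0.916), Coro1a (r = 0.915) and Tmem119 (r = 0.905), all lowest on treated day 6. The ranges of Pou5f1 (0.185) and Myc (0.29) stand beside residual SDs of 0.13 for both. With arrays ordered by level, no gap between neighbours exceeded that SD. From day to day, some changes did: -0.18 for Pou5f1 from treated day 5 to day 6 and 0.23 for Myc from treated day 4 to day 5.

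Few relatives of the members passed a test. Of 19 other SOX genes, limma called 0 in the vitamin C effect (4 at an unadjusted p under 0.05), where 0.752% of all genes were called, and 0 in the difference of slopes (3 at an unadjusted p under 0.05), where 0.0652% were. Sox1 and Sox3, the closest relatives of Sox2, lay between 5.74 and 6.27 and between 5.41 and 5.77 over the 8 arrays, with slopes of -0.09 (adjusted p = 0.457) and -0.04 (adjusted p = 0.763) with vitamin C. Sox15, which is also expressed in embryonic stem cells, differed by 0.40 ± 0.10 (adjusted p = 0.135). Sox17, an endoderm factor gene, and Sox4 rose on day with vitamin C by 0.47 ± 0.06 and 0.41 ± 0.09 per day (adjusted p = 0.0023 and 0.0163), where 5.25% of all genes rose, and 1 of these calls was lost without treated day 3 or 6. Of 11 other POU genes limma called 0 in each of the 4 comparisons, with 1 or 2 at an unadjusted p under 0.05 in each. Of all 19938 genes, 2531 were under that p in the vitamin C effect and 2244 in the difference of slopes. For the slopes on day, 3399 were under it without vitamin C and 4956 with it, where limma called 1.75% and 8.64%.

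Of 16 other KLF genes, Klf5, which acts beside Klf4 and Klf2 in embryonic stem cells, was higher with vitamin C by 0.60 ± 0.10 (limma adjusted p = 0.0415) and 15 did not pass, where 0.537% of all genes were called higher. The call of Klf5 was lost without any 1 of the days. Klf2 differed by 0.37 ± 0.12 (adjusted p = 0.239). Klf9 and Klf7 rose on day with vitamin C by 0.38 and 0.49 per day (adjusted p = 0.0183 and 0.0227), where 5.25% of all genes rose. From 0 to 2 KLF genes were called upwards when single treated arrays were left out. The untreated slope of Klf9 was also 0.38 (adjusted p = 0.0502). Over the 16 KLF genes the median slope was 0.16 without and 0.07 with vitamin C. For the difference of slopes limma called 0 of the 16 (2 at an unadjusted p under 0.05).

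Among 22 genes of the Myc and Max network, limma called 0 in the vitamin C effect (2 at an unadjusted p under 0.05) and 0 in the difference of slopes (1 at an unadjusted p under 0.05). Of all 19938 genes, 2531 and 2244 were under that unadjusted p in these comparisons, and limma called 0.752% and 0.0652%. With vitamin C, Mycn, a paralog that can stand in for Myc, rose by 0.46 ± 0.08 per day (adjusted p = 0.00719). Its level at days 3 and 6 was 5.55 and 6.80. Its untreated slope was 0.28 (adjusted p = 0.118), and the difference of slopes did not pass (0.18, adjusted p = 0.582). Mxd1 and Mxd4, partners of Max that oppose Myc, rose with vitamin C by 0.47 and 0.25 per day (adjusted p = 0.00419 and 0.0481). Skp2, of a ligase that acts on Myc, fell with vitamin C by 0.25 per day (adjusted p = 0.0254). The untreated slope of Mxd1 was 0.31 (adjusted p = 0.0613). Mycn and Mxd1 kept their call without treated day 3, 4 or 5 and lost it without day 6, Mxd4 lost it without any 1 of the 4, and Skp2 kept it only without day 4. These are 3 rises and 1 fall of 22 genes, where 5.25% of all genes rose and 3.39% fell. Mycl, the third paralog, did not pass in any of the 4 comparisons, with a vitamin C difference of -0.13 (adjusted p = 0.749).

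Among genes known as targets of Pou5f1 and Sox2, some of the best known genes of embryonic stem cells were higher with vitamin C. Of 18 measured, 4 were higher, 0 lower and 14 did not pass, where 0.537% of all genes were higher, and all 18 lay above 0 with a median of 0.59 against -0.01 over all genes. They were Dppa5a (3.44 ± 0.18, adjusted p = 0.000275), Nanog (1.79 ± 0.14, adjusted p = 0.00164), Utf1 (1.10 ± 0.17, adjusted p = 0.0267), a chromatin-associated gene whose enhancer holds a joined POU and SOX site, and the uridine phosphorylase gene Upp1 (0.67 ± 0.11, adjusted p = 0.0351). Without day 3 limma called 6, and without day 4, 5 or 6 it called 2. Upp1 was at -0.041 when day was replaced by the mean of the feeder markers. Fgf4, a growth factor gene with such a site, differed by 0.43 (adjusted p = 0.135) and had slopes of -0.01 without and -0.12 with vitamin C (adjusted p = 0.943 and 0.261). The list was put together with earlier results of these data known, and its direction is no separate support.

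On day, 12 of these 18 targets rose with vitamin C, where 5.25% of all genes rose, and 4 rose without it, where 0.782% did. With vitamin C the steepest were the Nodal antagonist genes Lefty1 (1.04 per day, adjusted p = 0.000564) and Lefty2 (1.02, adjusted p = 8.65e-05), followed by Utf1 (0.73), Dppa4 (0.63), Nanog (0.61), the Nodal co-receptor gene Tdgf1 (0.61), Otx2 (0.58), Dppa5a (0.57), Upp1 (0.56), Esrrb (0.53), Zfp42 (0.45) and Hesx1 (0.38). Without vitamin C, Otx2 (0.71), Lefty1 (0.66), Tdgf1 (0.58) and Nanog (0.38) rose. Leaving out 1 array at a time gave 8 rises without treated day 6 to 11 without treated day 4, and in untreated cells 0 without day 3 to 4 without day 4. Without treated day 3, limma called 9 rises and 1 fall with vitamin C. The difference of slopes was called for Lefty2 (0.76 ± 0.09, adjusted p = 0.0248). Between days 3 and 6 its level went from 4.10 to 7.15 with vitamin C and from 4.16 to 4.98 without it. That call was kept without treated day 4 and missed without any of the other 7 arrays.

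**Figure D4:**
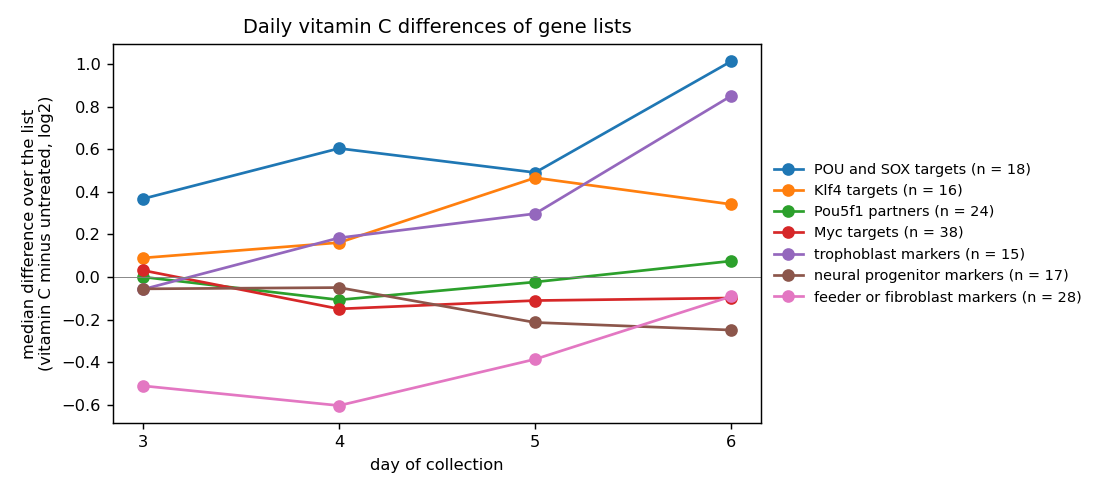
Median over each gene list of the difference between the array with vitamin C and the untreated array of the same day (log2 units), for 7 lists with the number of measured genes in the legend. The POU and SOX targets reached 1.01 on day 6, the Myc targets lay between -0.15 and 0.03, and the feeder or fibroblast markers went from -0.51 on day 3 to -0.09 on day 6.

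Of 24 genes for proteins found with Pou5f1 in embryonic stem cells, 1 was higher with vitamin C, Tfcp2l1 (1.01 ± 0.15, adjusted p = 0.0259), a factor gene of the naive state, where 0.537% of all genes were higher, and the median was -0.01. Without day 4, 5 or 6 limma called 0 of them. With vitamin C, Tfcp2l1 (0.43), Esrrb (0.53) and Arid3b (0.29) rose on day and Nr5a2, a nuclear receptor gene, fell by 0.48 per day (adjusted p = 0.00357), where 5.25% of all genes rose and 3.39% fell, and 1 or 2 rose when single treated arrays were left out. Without vitamin C 0 of the 24 passed, with Nr5a2 at -0.31 per day (adjusted p = 0.0597). For the difference of slopes limma called 0 of the 24 (3 at an unadjusted p under 0.05). The median of the vitamin C effect turned to 0.03 with quantile normalization.

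Of 24 other genes reported to replace or help the factors in reprogramming, 3 were higher with vitamin C (Nanog, Utf1 and Klf5) and 21 did not pass, with a median of 0.28, where 0.537% of all genes were higher. The count was 2 without day 3 and 1 without each other day. Esrrb, which can stand in for Klf4, differed by 1.21 (adjusted p = 0.0645). On day, 9 rose and 1 fell with vitamin C (2 rises without treated day 6), where 5.25% of all genes rose and 3.39% fell, among them the RNA-binding protein gene Lin28a (0.53 per day, adjusted p = 0.00158), Gata4 (0.67), Gata6 (0.48), Gata3 (0.43) and Prdm14 (0.38), and the fall was that of Nr5a2. Without vitamin C, Nanog and Lin28a (0.32, adjusted p = 0.0427) rose, where 0.782% of all genes did, and the count was 0 or 1 without single arrays. For the difference of slopes limma called 0 of the 24 (4 at an unadjusted p under 0.05).

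Targets of Klf4 moved in both directions. Of 16 measured, Nanog and Klf5 were higher, Tagln, a smooth muscle protein gene, was lower (-0.72 ± 0.13, adjusted p = 0.0443), and 13 did not pass, where 0.537% of all genes were higher and 0.216% lower. These counts were 1 higher and 0 lower without day 4, 5 or 6, and 3 higher and 1 lower without day 3. The epithelial cadherin gene Cdh1 differed by 0.61 (adjusted p = 0.0545) and rose on day with vitamin C by 0.34 per day (adjusted p = 0.0118), as did Lefty1, Nanog and Krt19 (0.69), while Ccnd1 fell by 0.45 and Tagln by 0.38 per day. These 4 rises and 2 falls, where 5.25% and 3.39% of all genes rose and fell, became 2 and 0 without treated day 6. Lefty1 (0.66), Krt19 (0.57) and Nanog (0.38) also rose without vitamin C, where 0.782% of all genes did (0 to 2 without single arrays). For the difference of slopes limma called 0 of the 16 targets (3 at an unadjusted p under 0.05). The feeder or fibroblast markers, which include the intermediate filament gene Vim (-0.63), had a median of -0.38, and 3 of 28 were lower, where 0.216% of all genes were, with 0 called without day 4 or 5 and 4 without day 6.

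Some targets of Myc fell on day with vitamin C, while no change of Myc passed a test. Of 38 measured genes of ribosome production, nucleotide and polyamine synthesis and growth, 11 fell on day with vitamin C and 0 rose, where 3.39% of all genes fell, and 35 lay below 0 with a median of -0.18 per day. Among them were the cell cycle gene Ccnd2 (-0.35, adjusted p = 0.00917), Nme1 (-0.36), Cad (-0.31), the chaperonin gene Hspd1 (-0.28) and the spermidine synthase gene Srm (-0.27). Leaving out treated days 3, 4, 5 and 6 in turn gave 3, 12, 7 and 0 falls. Without vitamin C, 36 lay below 0 with a median of -0.16, and Srm fell (-0.27, adjusted p = 0.0411), where 0.968% of genes did, a call lost without any 1 of the untreated arrays. In the vitamin C effect Ccnd2 was lower (-0.76 ± 0.11, adjusted p = 0.0255, lost without day 4, 5 or 6) and the other 37 did not pass. For the difference of slopes limma called 0 of the 38 (2 at an unadjusted p under 0.05), where 2244 of all 19938 genes were under that p.

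Sox2 is also expressed outside pluripotent cells, and markers of neural progenitors, trophoblast and endoderm were followed. Of 17 neural progenitor markers limma called 0 in the vitamin C effect (6 at an unadjusted p under 0.05, 5 of them lower). Of all 19938 genes, 2531 were under that p in this comparison. The mean log2 level of the neural progenitor markers lay between 4.62 and 4.84 without and between 4.51 and 4.64 with vitamin C. Otx2, Map2, Msi1 and Prom1 rose and Pax6 fell on day with vitamin C, and Otx2 and Prom1 also rose without it. These are 4 rises and 1 fall of 17, where 5.25% and 3.39% of all genes rose and fell, and 2 untreated rises, where 0.782% rose. Without treated day 3, 2 rises and 0 falls were called, and without treated day 6, 1 and 0. The untreated count was 0 or 1 without single arrays. Of 15 trophoblast markers, 3 were higher with vitamin C, where 0.537% of all genes were: Rhox6 (1.28), Rhox9 (1.14) and the trophoblast stem cell gene Elf5 (0.94), and Plac1 had a call for the difference of slopes like Sox2 (1.08 ± 0.14, adjusted p = 0.0325). The count of 3 fell to 0 without day 4 or 5 and was 4 without day 3, and the call of Plac1 was kept only without treated day 4 or 5. On day, 7 of the 15 rose with vitamin C, where 5.25% of all genes did, and 0 without treated day 6. In untreated cells 1 of the 15 rose, Eomes (0.37 per day, adjusted p = 0.0228), where 0.782% of all genes did. Eomes was also among the 7, at 0.45 per day. The mean level of the trophoblast list went from 4.63 to 5.67 with vitamin C and from 4.67 to 4.84 without it. Of 16 endoderm markers 5 rose on day with vitamin C (Sox17, Cxcr4, Gata4, Gata6 and Apoa1), where 5.25% of all genes rose. There were 2 rises without treated day 3 and 1 rise and 1 fall without treated day 6. In untreated cells 0 of the 16 passed (6 at an unadjusted p under 0.05, 5 of them rising). Their median slope was 0.09 without and 0.07 with vitamin C. For the difference of slopes limma called 0 of the 16 (4 at an unadjusted p under 0.05). The endoderm markers are not limited to endoderm that expresses Sox2. For these markers 0 passed in the vitamin C effect (1 at an unadjusted p under 0.05, where 2531 of all 19938 genes were under it). The part of these cell types in the course of Sox2 was not tested.

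The label of the cells was set against 20 markers of pluripotent cells other than the members. Their mean log2 level went from 5.62 to 6.04 without and from 6.16 to 7.01 with vitamin C between day 3 and day 6, and 4 of 20 were higher with vitamin C, where 0.537% of all genes were (2 without day 4 to 7 without day 3). On day, 10 of 20 rose with vitamin C, where 5.25% of all genes did (6 without treated day 3 or 6 to 11 without treated day 4), and 3 of 20 rose without it, where 0.782% did (0 to 2 without single arrays). With vitamin C, 0 or 1 of the 20 fell when single treated arrays were left out. For the difference of slopes limma called 0 of the 20 (5 at an unadjusted p under 0.05), where 2244 of all 19938 genes were under that p. The values come with no detection calls, so absence of a marker was not called. The arrays had median log2 values from 4.33 to 4.40, and pairs of arrays correlated with 0.977 to 0.994 over all probe sets.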

How the data were processed

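RNA of 8 samples was read on Affymetrix whole-transcript arrays. The values are the deposited log2 table, which the authors normalised by RMA; the submitters' processing notes also name Partek. The range of the values fits a log2 scale. No scanner files, detection calls or genome build are given in the sources used here. Gene names come from the platform annotation: 21789 probe sets have 1 symbol, 1621 have several and 5443 are not listed. The brightest 1-symbol probe set stood for each of 19938 genes. limma 3.58.1 in R 4.3.3 fitted the vitamin C effect with day as a block, and, in 1 model with a slope per treatment, both slopes on day and their difference. P-values were adjusted by Benjamini-Hochberg over all 19938 genes, with a threshold of 0.05. Intervals and SEs are moderated. With 8 arrays, their number sets the precision. The scripts were tested on simulated data.

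Arrays are paired by day, which the labels give. Deviations of same-day arrays from their group means correlated at 0.371, 0.180, 0.125 and 0.475 on days 3 to 6.

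The members and the gene lists (15 with measured genes, 1 of them the members themselves) were chosen with earlier results of these data known. Named genes are the members, list genes past the threshold or with the smallest p-values (up to 4 in the vitamin C effect and up to 2 in the difference of slopes), and the 6 genes most like each member. Sox3, Fgf4, Klf2 and Mycl fall outside this rule and were chosen after their values were seen. Sox2ot, listed alone for the Sox2 locus, matched no probe set with 1 symbol. Promoters are from RefSeq. Alternatives changed the normalization, filters, thresholds, blocks and arrays left out.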

Additional observations from a re-analysis of the deposited data

Results flagged for a closer look

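Among the members and the genes of the lists, 3 had a slope on day that differed between treated and untreated cells by the test of the difference itself. Genes named for their likeness to a member were chosen on the same arrays and are left out of this count. The limma adjusted p was 0.0391 for Sox2 (0.85 per day), 0.0248 for Lefty2 (0.76 per day), which encodes a Nodal antagonist, and 0.0325 for the trophoblast gene Plac1 (1.08 per day). Dixon's ratio flagged no array of a member: the highest ratio of gap to range was 0.781, for Pou5f1 without vitamin C, under Dixon's 95% limit for 4 values. The 4 values are successive days, and a trend on day such as that of treated Sox2 widens the range. The ratio therefore cannot show that no array stood apart.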

How the results depend on the processing

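The rise of Sox2 with vitamin C passed under all 13 alternatives run, while counts of genes called moved widely. Some of the 13 did not put the rise to a test. An adjusted p of 0.1 only loosened the threshold. Taking the mean of a gene's probe sets left the values of Sox2 unchanged, as it has 1 probe set. The vitamin C effect called 150 genes (107 higher, 43 lower), against 79 with each probe set tested, 376 with a trended and robust prior (213 higher, 163 lower), 384 at an adjusted p of 0.1, 18 at 0.01, 291 with day as a number (170 higher, 121 lower), 12 with the feeder marker mean in place of day (8 higher, 4 lower), and 3 to 286 without single days. The difference of slopes called 13 genes, against 21 after quantile normalization, 20 without the dimmest 25% of genes, 80 with the trended prior, 42 at 0.1, 0 at 0.01 (2244 at an unadjusted p under 0.05 in limma) and 0 to 29 without single arrays. The untreated slope called 349 genes, against 782 with the trended prior, 773 at 0.1, 88 at 0.01 and 8 to 222 without single arrays. The slope with vitamin C called 1722, against 2917 at 0.1, 516 at 0.01, 879 fitted alone and 270 to 1680 without single arrays. For Sox2 the vitamin C effect of 1.45 passed with day as a number and was 1.08 to 1.96 without single days. Its difference of slopes, 0.85, did not pass with each probe set tested or at 0.01 and was 0.64 to 1.06 without single arrays. Pairing by day: no replicate block left 17 genes (16 higher, 1 lower) in the vitamin C effect and Sox2 at 1.45 (adjusted p = 0.419), and the replicate block gave 20 genes and 0.85 for Sox2 (adjusted p = 0.0445) in the difference of slopes. Estimates near 0 changed sign: Klf4 in the vitamin C effect (-0.000857 after centring, -0.21 with the feeder mean, -0.039 to 0.037 without single days) and difference of slopes (-0.23 to 0.088), Pou5f1 in the difference of slopes (-0.040 to 0.034), the untreated slope (0.0049 after quantile normalization) and the slope with vitamin C (-0.047 to 0.026), and Myc in the untreated slope (-0.0072 after centring, -0.027 to 0.047). Upp1 was at -0.041 with the feeder mean. The causes were not tested.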
